A study of Mus musculus with 3 samples.

Results

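Interferon-stimulated genes are the genes that a cell switches on when an interferon reaches its receptor. The 42 members described here were chosen by name, from the 31053 genes measured, as interferon-induced GTPases, IFIT, OAS and Slfn genes, interferon-regulated transcription factors and other interferon-stimulated genes. Earlier results of these data were known when the members were chosen. All 42 were found in the data. They were followed through every cell class of the mouse pancreas in 3 libraries of live CD45+ cells. One library came from mice given PBS, 1 from mice given WGP 3 days before euthanization and 1 from mice given WGP 7 days before euthanization. WGP is a particulate β-glucan from yeast, given as a single intraperitoneal dose to young adult C57BL/6 mice of both sexes, per the methods of the study. The labels do not say how many mice were pooled in a library.

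Type I interferons (the alpha and beta forms) signal through Ifnar1 and Ifnar2 to genes that carry the interferon-stimulated response element (ISRE). Interferon gamma, made mainly by T and NK cells, signals through Ifngr1 and Ifngr2 to genes that carry the gamma-activated site (GAS). Guanylate-binding proteins (Gbp) and immunity-related GTPases (Irgm1, Irgm2, Igtp, Iigp1, Tgtp1, Tgtp2) coat and attack vacuoles that hold pathogens and are classical targets of interferon gamma. Ifit proteins bind foreign RNA, Oas proteins make the activator of RNase L, and both families are best known as targets of type I interferon. The 12 GTPase genes are called the GTPase arm and the 7 Ifit, Oasl and Oas genes the Ifit/Oas arm, and both names are for grouping only.

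The promoters of both arms are shown because their letters were not used to choose the genes. RefSeq promoters (GRCm38.p6, 250 bases before to 50 bases after the start) were matched by symbol for 35 of 42 members, 9 of 12 in the GTPase arm and 7 of 7 in the Ifit/Oas arm. Both strands were searched for the ISRE letters, TTTC followed after any 2 bases by TTTC (GAAA, any 2 bases and GAAA on the other strand), and the GAS letters TTCNNNGAA, which read the same on both strands. A match may overlap a match of the other motif, as in Bst2. The stretches below hold the 150 bases before the start, 5′ to 3′ on the strand of the gene, with matches in capitals.
Gbp2 (chr3:142620513-142620662, + strand): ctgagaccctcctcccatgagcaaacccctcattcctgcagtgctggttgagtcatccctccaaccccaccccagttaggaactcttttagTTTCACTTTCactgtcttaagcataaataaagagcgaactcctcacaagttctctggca
Gbp7 (chr3:142530186-142530335, + strand): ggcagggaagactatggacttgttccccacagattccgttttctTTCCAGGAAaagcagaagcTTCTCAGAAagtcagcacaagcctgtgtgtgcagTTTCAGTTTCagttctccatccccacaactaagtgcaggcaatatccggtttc
Igtp (chr11:58199406-58199555, + strand): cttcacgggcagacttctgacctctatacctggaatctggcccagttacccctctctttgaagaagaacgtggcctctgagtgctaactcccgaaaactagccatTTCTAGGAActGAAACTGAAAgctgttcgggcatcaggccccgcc
Irgm2 (chr11:58214827-58214976, + strand): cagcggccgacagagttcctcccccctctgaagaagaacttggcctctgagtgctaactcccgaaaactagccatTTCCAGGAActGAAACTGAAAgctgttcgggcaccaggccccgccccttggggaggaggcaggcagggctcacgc
Tgtp1 (chr11:48992247-48992396, - strand): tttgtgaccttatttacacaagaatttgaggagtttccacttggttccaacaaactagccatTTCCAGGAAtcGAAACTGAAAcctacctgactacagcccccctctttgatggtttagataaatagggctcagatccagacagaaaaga
Ifit1 (chr19:34640739-34640888, + strand): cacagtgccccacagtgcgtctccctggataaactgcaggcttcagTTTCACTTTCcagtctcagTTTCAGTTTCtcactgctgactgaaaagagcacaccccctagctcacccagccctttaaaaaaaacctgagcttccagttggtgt
Ifit3 (chr19:34583379-34583528, + strand): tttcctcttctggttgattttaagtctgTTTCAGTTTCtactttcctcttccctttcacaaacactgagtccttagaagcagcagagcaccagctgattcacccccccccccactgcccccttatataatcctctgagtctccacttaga
Irf1 (chr11:53769864-53770013, + strand): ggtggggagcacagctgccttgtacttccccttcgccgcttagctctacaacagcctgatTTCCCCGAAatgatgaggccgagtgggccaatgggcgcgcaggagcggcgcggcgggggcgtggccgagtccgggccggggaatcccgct
In Gbp2 an ISRE match began 59 bases before the start and no GAS match was found. Igtp, Irgm2 and Tgtp1, 3 immunity-related GTPases of chromosome 11, shared a layout in which a GAS match began 11 bases before an ISRE match, and Tgtp2 had the same spacing. Ifit1 held 2 ISRE matches and no GAS match. Ifit3 did as well, and 1 of its matches begins upstream of the stretch shown. Irf1, a transcription factor induced by interferon gamma, held a GAS match 90 bases before 1 of its 2 starts and no ISRE match.

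ISRE letters were found in 9 of 9 GTPase promoters, in 4 of 7 Ifit/Oas promoters and in 3.99% of the promoters of all 27025 genes in the table. GAS letters were found in 6 of 9 GTPase promoters, in 2 of 7 Ifit/Oas promoters (Ifit2 and Oas1a) and in 9.55% of all genes. Both motifs stood together in 6 of 9 GTPase promoters, in 1 of 7 Ifit/Oas promoters (Oas1a) and in 0.614% of all genes. Promoters of related genes share sequence, so these genes are not independent of each other. A match is a description of the letters and not a bound site, and genes without a match, such as Oasl2, may hold the motif outside the window.

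**Figure D1:**
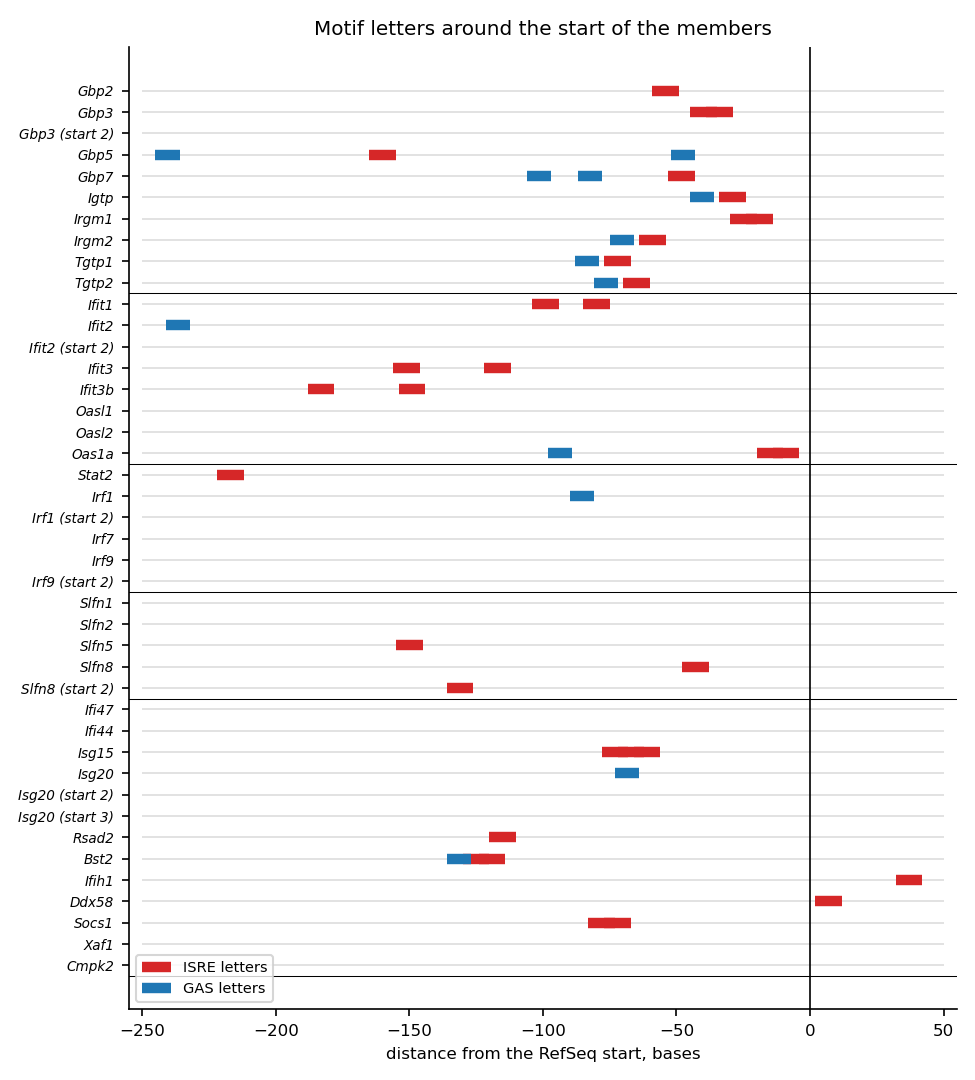
Position of ISRE letters (red) and GAS letters (blue) in the window from 250 bases before to 50 bases after each RefSeq start of 35 members, 1 row per start, grouped by list. All 9 GTPase genes have a red mark at 1 or more of their starts, and in Igtp, Irgm2, Tgtp1 and Tgtp2 a blue mark lies just upstream of the red one.

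Barcodes with at least 1000 UMIs (unique molecular identifiers, each 1 captured RNA molecule) and at most 30% mitochondrial UMIs were kept, which left 14302 cells, of which 5249 came from PBS, 4879 from the 3-day library and 4174 from the 7-day library. They held 46240979, 51793608 and 41749724 UMIs, and 9, 1 and 5 barcodes were shared by PBS and 3-day, PBS and 7-day, and 3-day and 7-day WGP. Ptprc, which encodes CD45, had a UMI in 87.2% to 94.3% of cells. Cells were clustered without the members and the other interferon genes listed for this report, and genes outside those lists were not removed as interferon genes. Clusters may therefore still reflect the interferon response. Each cluster was called by the class whose markers it carried ("X-like"). Values are UMIs summed over the cells of a class per 1000000 of all their UMIs (CPM), and a log2 ratio compares a WGP library with PBS, so both ratios share the PBS library. Each condition has 1 library, so there is no test, and the 95% intervals in brackets cover counting error only. Fibroblast-like and erythroid-like cells passed the CD45 sort as small fractions, below 1% and 2.34% of a library at most.

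The libraries also differed in the sex of the mice. Of the monocyte/macrophage-like cells, 852 of 898 in PBS, 79 of 772 at 3 days and 557 of 1439 at 7 days had Xist and no Y transcript. The cDC2-like cells shifted likewise, with Xist and no Y transcript in 132 of 162, 10 of 92 and 61 of 255. Other classes shifted as well. Fibroblast-like cells had Xist alone in 33 and a Y transcript alone in 7 cells in PBS, against 5 and 16 at 7 days. NK cell-like cells had 53 and 35 in PBS and 15 and 194 at 3 days. In cDC1-like cells these were 53 and 32 in PBS and 3 and 91 at 3 days. Sex also differed between the classes of 1 library. In PBS these counts were 852 and 7 in monocyte/macrophage-like, 304 and 808 in B cell-like and 87 and 139 in plasma cell-like cells. Contrasts between classes and the values at PBS class shares are therefore not separated from sex. Sex and treatment cannot be told apart for the classes that shifted. Arms within 1 sex were read only where at least 20 cells of every library had its transcripts, and not every such value is printed.

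In the whole sort the GTPase arm was at 268 CPM in PBS, 379 at 3 days and 1703 at 7 days. The log2 ratio was 0.50 [0.47, 0.54] at 3 days and 2.67 [2.64, 2.70] at 7 days. The Ifit/Oas arm was at 92.1, 81.1 and 175 CPM, with log2 ratios of -0.18 [-0.25, -0.12] and 0.93 [0.87, 0.98]. Both arms were thus higher at 7 days, and the GTPase arm by the larger factor. The mixture of cells had changed as well: monocyte/macrophage-like cells carried 21.3% of all UMIs in PBS and 40.4% at 7 days. With the class shares of PBS kept, the 7-day log2 ratio was 2.19 for the GTPase arm and 0.35 for the Ifit/Oas arm. The PBS levels with the 7-day class shares gave 0.23 and 0.63. Cells with Xist alone gave 0.04 and 2.14 for the GTPase arm and -0.51 and 0.43 for the Ifit/Oas arm, and cells with a Y transcript alone 0.76 and 3.04 and 1.08 and 2.20. The mixture of classes differed within each sex as well: 7 of 1736 Y cells in PBS and 492 of 2510 at 3 days were monocyte/macrophage-like, so these whole-sort values do not separate sex from cell class.

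Among single members in the whole sort, 1 of 42 was at least 2-fold higher at 3 days (Gbp2) and 19 of 42 at 7 days, after 10 CPM was added to both sides. The share of all genes past the same limit was 0.656% at 3 days and 2.09% at 7 days. No member was at least 2-fold lower at either time, against 0.414% and 0.855% of all genes. At 7 days the higher members were 11 of 12 GTPases, 1 of 7 Ifit/Oas genes (Oasl2), Irf1, Slfn1 and 5 of the 15 other members. Only Tgtp1 of the GTPase arm stayed under this limit.

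In monocyte/macrophage-like cells the GTPase arm rose at both times and the Ifit/Oas arm did not. The GTPase arm was at 371 [359, 383] CPM in PBS, 962 [944, 980] at 3 days and 2726 [2701, 2751] at 7 days. Its log2 ratios were 1.37 [1.32, 1.43] and 2.88 [2.83, 2.93]. The Ifit/Oas arm was at 263 [253, 273], 223 [215, 232] and 273 [265, 281] CPM. Its log2 ratios were -0.24 [-0.31, -0.16] and 0.05 [-0.02, 0.12], so the 3-day library was below PBS and the 7-day interval held 0. For each Ifit/Oas UMI there were 1.41 GTPase UMIs in PBS, 4.31 at 3 days and 9.98 at 7 days. Xist cells alone gave 0.58 and 2.35 for the GTPase arm and -0.02 and -0.08 for the Ifit/Oas arm, so the 3-day rise of the GTPase arm was less than a doubling there. Median-of-ratios scaling would add 0.14 to every log2 ratio in this class at 3 days and 0.27 at 7 days, which gives the Ifit/Oas arm -0.10 and 0.33.

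**Figure D2:**
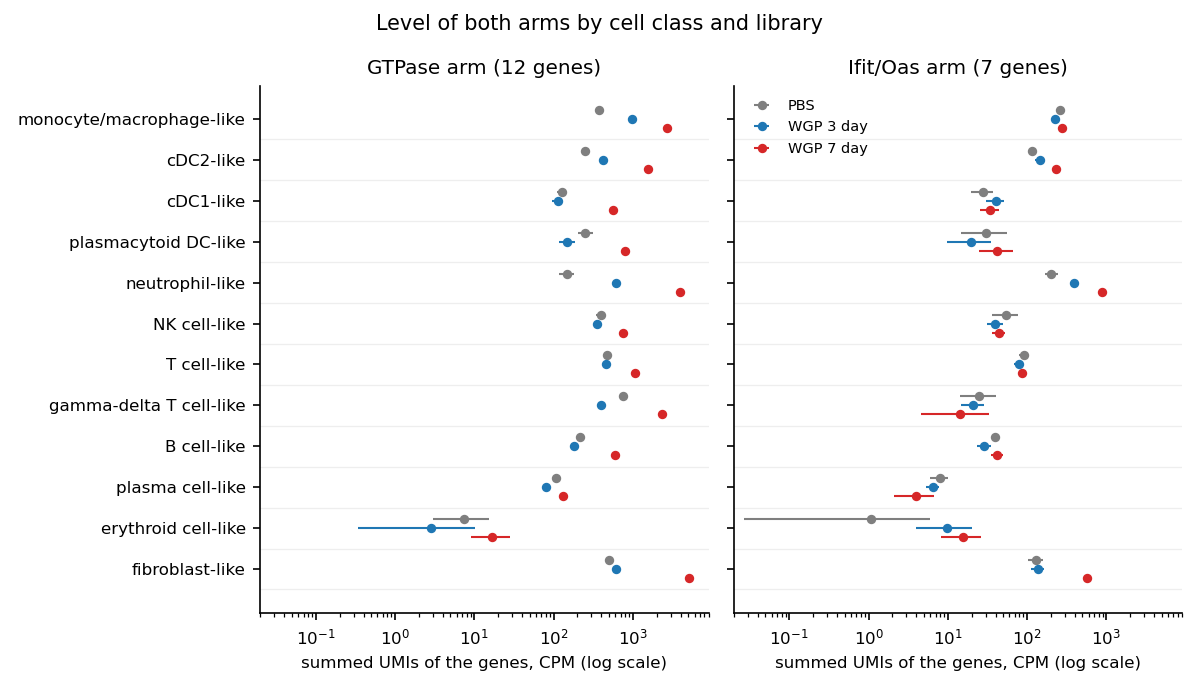
Summed UMIs of the GTPase arm (left) and the Ifit/Oas arm (right) in CPM, on log axes, in the 12 classes with at least 20 cells in every library; points are libraries and bars are 95% counting intervals. The 7-day point of the GTPase arm is right of the PBS point in all 12 classes, while on the Ifit/Oas side the 3 points of T, NK, B and monocyte/macrophage-like cells lie close together.

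Of the members in monocyte/macrophage-like cells, 5 of 41 with enough UMIs (at least 20 in either library) were at least 2-fold higher at 3 days, where 2.54% of all genes were. They were Gbp2, Gbp3, Gbp5, Ifi47 and Irf1. At 7 days 18 of 42 were higher, where 2.99% of all genes were. These included 12 of 12 GTPases, 0 of 7 Ifit/Oas genes, 1 of 4 transcription factors (Irf1), 1 of 4 Slfn genes (Slfn1) and 4 of 15 other members. No member was at least 2-fold lower at either time, against 2.36% and 4.07% of all genes. The median log2 ratio, after 10 CPM was added, over the members with at least 20 UMIs (11 GTPases at 3 days and 12 at 7 days) was 0.82 at 3 days and 2.05 at 7 days, and over the Ifit/Oas genes -0.20 and -0.16. Over all genes it was -0.06 and -0.13. In Xist cells 3 of 41 members were higher at 3 days, from 79 cells of that library, and 14 of 42 at 7 days. The share of all genes past the limit was not counted in Xist cells.

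Gbp2, a guanylate-binding protein, was at 66.6 CPM in PBS, 404 at 3 days and 1035 at 7 days in these cells. Its log2 ratios were 2.60 [2.48, 2.72] and 3.96 [3.85, 4.07], the largest rise of any measured member at 3 days. Gbp2 made the largest contribution to its arm, and the arm without it rose by 0.87 and 2.47 on the log2 scale. After thinning every cell to 1000 UMIs, 5.68% of cells had a Gbp2 UMI in PBS, 24.0% at 3 days and 49.0% at 7 days. In Xist cells Gbp2 was at 67.4, 148 and 668 CPM, log2 ratios of 1.14 [0.88, 1.38] and 3.31 [3.19, 3.43], so the 3-day rise was smaller there.

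The other guanylate-binding proteins differed in the size of their ratios. Gbp3 was at 43.3, 109 and 220 CPM, a log2 ratio of 1.33 [1.17, 1.49] at 3 days and 2.35 [2.20, 2.49] at 7 days. Gbp7 was at 92.4, 127 and 261 CPM, with log2 ratios of 0.46 [0.34, 0.58] and 1.5 [1.40, 1.60]. Gbp4 was at 6.08, 18.9 and 164 CPM and Gbp5 at 8.81, 35.4 and 149 CPM. Both were low in PBS and had larger ratios than Gbp3 and Gbp7. Their log2 ratios at 7 days were 4.76 [4.39, 5.15] and 4.08 [3.77, 4.40]. Gbp8 lay between 5.27 and 50.7 CPM and was 3.27 higher on the log2 scale at 7 days. In Xist cells the 3-day log2 ratios of Gbp4, Gbp5 and Gbp7 were 0.20, 0.02 and 0.10, with intervals that held 0, while Gbp3 kept 1.20 [0.89, 1.51]. At 7 days the 4 genes were at 4.16, 3.53, 0.98 and 1.94 in the order named.

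The immunity-related GTPases separated by time. Irgm1, a regulator of the family, was at 61.5, 116 and 247 CPM, with log2 ratios of 0.91 [0.77, 1.05] and 2.01 [1.89, 2.13]. Igtp (Irgm3), a second regulator, was at 30.2, 47.4 and 189 CPM, with log2 ratios of 0.65 [0.44, 0.86] and 2.64 [2.47, 2.82]. Iigp1, an effector that is loaded onto pathogen vacuoles, was at 32.7, 37.3 and 311 CPM. Its log2 ratio was 0.19 [-0.02, 0.40] at 3 days and 3.25 [3.08, 3.41] at 7 days, so nearly all of its rise lay between the WGP libraries. Irgm2 showed the reverse order, at 20.4, 45.7 and 60.7 CPM, and was the 1 GTPase with a 7-day to 3-day log2 ratio under 1 (0.41). Tgtp1 had 1 UMI in PBS, 7 at 3 days and 184 at 7 days, and its 7-day log2 ratio of 6.75 has an interval from 4.26 to 12.06. Tgtp1 and Tgtp2 are near-identical copies whose reads can be lost or exchanged in mapping, and both are uncertain for that reason. Xist cells gave 3-day log2 ratios of 0.34 for Irgm1, 0.07 for Igtp, 0.48 for Iigp1 and 0.60 for Irgm2, and 7-day ratios of 1.60, 2.03, 2.99 and 0.99, so the 7-day ratios were lower than in the class and above 0.

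Members of the Ifit/Oas arm stayed within 1 log2 unit of PBS in the same cells, other than Ifit3 at 3 days and Ifit3b at 7 days. Oasl2, a ubiquitin-like member of the Oas family, was at 102 CPM in PBS, 87.3 at 3 days and 124 at 7 days. Ifit1, which binds RNA without a host cap, was at 31.4, 35.1 and 37.1 CPM, and Ifit2 at 24.4, 35.3 and 36.8 CPM. Both lay slightly above PBS at 7 days, with log2 ratios of 0.24 [0.04, 0.44] for Ifit1 and 0.59 [0.38, 0.81] for Ifit2. Ifit3, a partner of Ifit1, was at 50.2, 24.1 and 31.3 CPM, lower in both WGP libraries. Its log2 ratios were -1.06 [-1.27, -0.84] and -0.68 [-0.86, -0.50], and in Xist cells -0.07 and -0.58. Oasl1 and Oas1a had 7-day log2 ratios of -0.28 and -0.25. Ifit3b, a near-identical copy of Ifit3, had 52, 31 and 28 UMIs, and a read can be assigned to either copy.

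**Figure D3:**
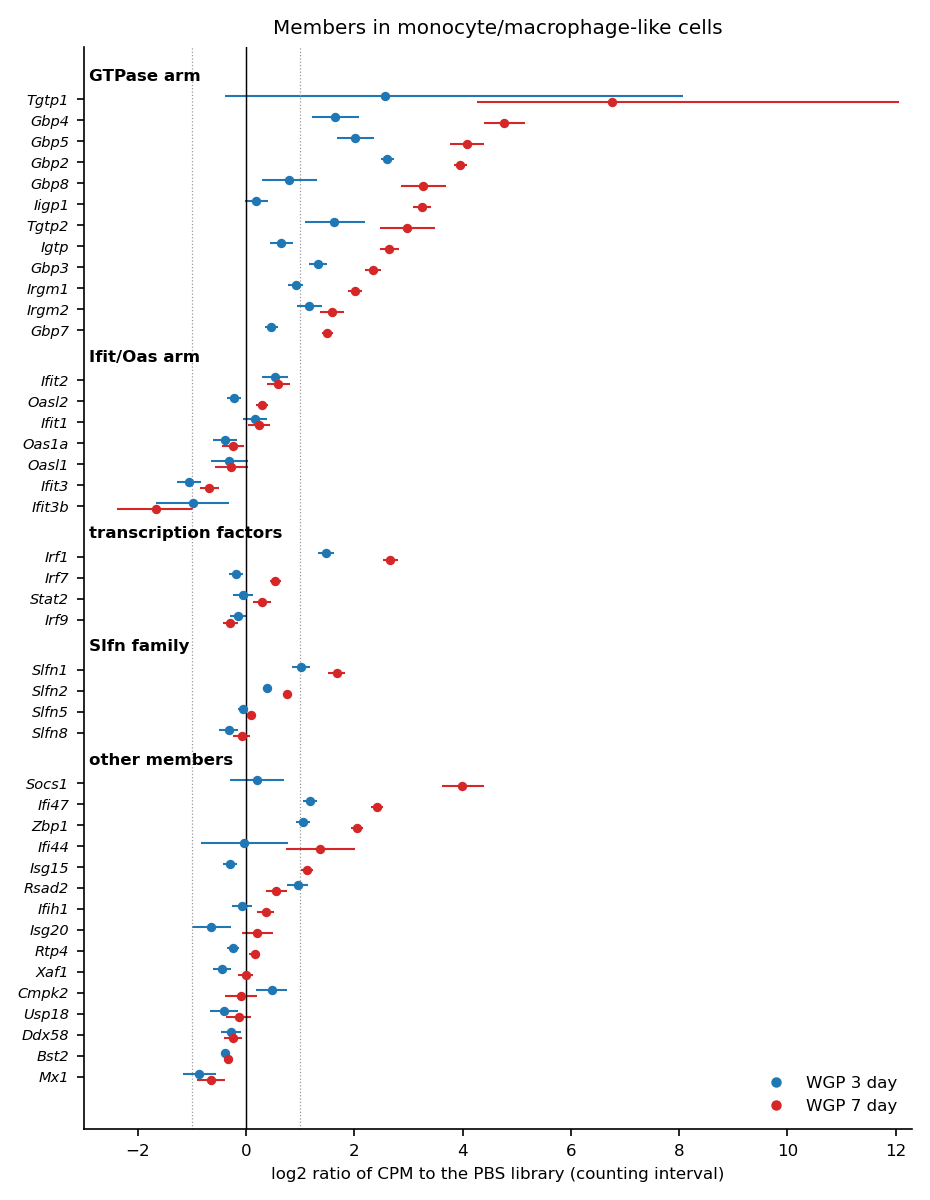
log2 ratio of CPM to the PBS library in monocyte/macrophage-like cells for the 42 members, at 3 days (blue) and 7 days (red), with 95% counting intervals; dotted lines mark a doubling and a halving. All 12 GTPases lie right of the upper dotted line at 7 days, and no Ifit/Oas gene does.

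Among the transcription factors, Irf1 moved with the GTPases. Irf1 was at 51.9, 144 and 329 CPM in monocyte/macrophage-like cells, a log2 ratio of 1.47 [1.33, 1.62] and 2.67 [2.54, 2.80]. In Xist cells it was at 51.2, 54.7 and 263 CPM, so the 3-day value there was close to PBS. Irf7, the amplifier of type I interferon responses, was at 105, 92.0 and 153 CPM. Stat2 and Irf9, which act downstream of the type I interferon receptor, had 7-day log2 ratios of 0.30 and -0.29.

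The Schlafen genes were led by Slfn2, which supports survival of resting lymphocytes and monocytes, at 293, 384 and 494 CPM. Slfn5 was at 212, 203 and 225 CPM, and Slfn8 was likewise within 0.32 log2 units of PBS. Slfn1 was 1.01 higher at 3 days and 1.67 higher at 7 days on the log2 scale, and 1.80 and 1.68 higher in Xist cells. Slfn2 was 0.13 and 0.62 higher there.

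Among the other members, 4 of 15 were past 2-fold at 7 days. Ifi47, also a GTPase of the immunity-related family, was at 71.3, 161 and 380 CPM. Zbp1, a sensor of Z-form nucleic acid, was at 67.7, 140 and 279 CPM. Socs1, which blocks interferon gamma signalling, was at 6.08 and 6.98 CPM in PBS and 3-day WGP and 96.4 at 7 days, as late as Iigp1. Socs1 and Zbp1 are named after their values were seen. Bst2 (tetherin), which holds budding viruses on the cell, was at 376, 287 and 298 CPM, with log2 ratios of -0.39 and -0.34 before the scaling shift of this class. Mx1, an antiviral GTPase induced by type I interferon, was at 23.8, 13.1 and 15.1 CPM, with log2 ratios of -0.86 [-1.17, -0.56] and -0.65 [-0.92, -0.39]. The laboratory strain C57BL/6 carries a defective Mx1 gene. Isg15, a ubiquitin-like modifier, was at 94.0, 76.5 and 205 CPM, below PBS at 3 days and above it at 7 days, and it too is named after its values were seen. The remaining 9 members (Ifi44, Isg20, Rsad2, Usp18, Rtp4, Ifih1, Ddx58, Xaf1 and Cmpk2) had 7-day log2 ratios from -0.25 for Ddx58, an RNA sensor, to 1.36 for Ifi44, which had 27, 31 and 118 UMIs. In Xist cells the 3-day and 7-day log2 ratios were 0.64 and 1.77 for Ifi47, 0.78 and 1.86 for Zbp1, 0.81 and 3.52 for Socs1, -0.15 and -0.23 for Bst2, -0.48 and -0.61 for Mx1 and -0.03 and 0.96 for Isg15. The 3-day rise of Ifi47 was thus under 2-fold in those cells.

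The monocyte/macrophage class was made of different clusters in the 3 libraries, so both arms were also read inside single clusters. Cluster 3, led by Sirpb1c, Chil3 and Clec4a3, held 99, 188 and 528 cells. Its GTPase arm was at 471, 1018 and 2156 CPM and its Ifit/Oas arm at 520, 318 and 354 CPM. The log2 ratios were 1.11 [0.97, 1.26] and 2.20 [2.06, 2.34] for the GTPases and -0.71 [-0.87, -0.55] and -0.56 [-0.70, -0.41] for Ifit/Oas. Cluster 13, led by Ms4a7, Fcrls and C1qa, a profile of resident macrophages, held 417, 52 and 20 cells. Its GTPase arm was at 292, 605 and 999 CPM and its Ifit/Oas arm at 256, 213 and 200 CPM. The GTPase log2 ratios were 1.05 [0.86, 1.23] and 1.77 [1.55, 1.99]. Those of the Ifit/Oas arm were -0.27 [-0.57, 0.03] and -0.36 [-0.84, 0.09], and both intervals held 0. Within both clusters the arms thus moved apart, and the Ifit/Oas arm of cluster 3 was lower in both WGP libraries. The clusters were not split by sex.

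At 7 days the highest GTPase levels of the class were in 2 clusters with under 20 PBS cells. Cluster 6, led by Saa3, Arg1 and Gpnmb, was at 1012 CPM at 3 days and 2844 at 7 days. Cluster 8, led by Cxcl9, Ly6i and Cxcl10, was at 765 and 3228. Cxcl9 and Cxcl10 are interferon gamma response genes outside the members and were not used for clustering. The 2 clusters parted on the other arm: at 7 days the Ifit/Oas arm was at 145 CPM in cluster 6 and 294 in cluster 8. Clusters 31, 32 and 34 (led by Retnla, Kif23 and Lyve1), which had at least 20 cells in PBS alone, lay between 280.1 and 623 CPM for the GTPases.

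**Figure D4:**
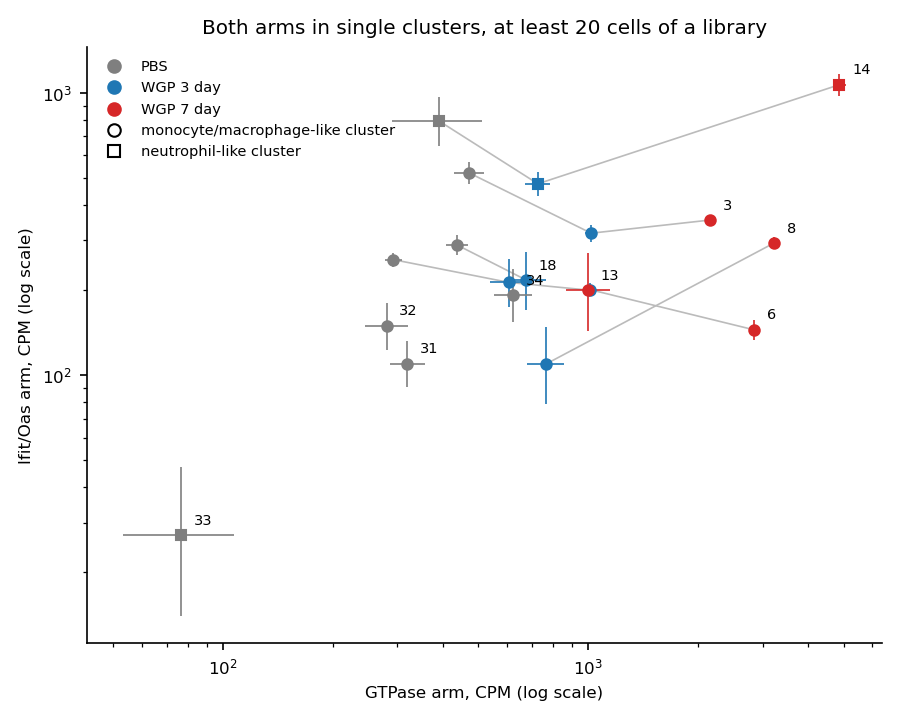
GTPase arm against Ifit/Oas arm in CPM, on log axes, for each monocyte/macrophage-like (circles) and neutrophil-like (squares) cluster with at least 20 cells of a library; bars are 95% counting intervals, lines join the libraries of 1 cluster and numbers name clusters. Points of cluster 3 run from 471 to 2156 CPM along the GTPase axis while their Ifit/Oas level stays between 318 and 520 CPM.

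Neutrophil-like cells had both arms at high level after WGP. The GTPase arm was at 148, 614 and 3973 CPM and the Ifit/Oas arm at 202, 390 and 878 CPM, log2 ratios at 7 days of 4.75 [4.44, 5.08] and 2.12 [1.83, 2.42]. The class held 86, 233 and 189 cells, and 36 of the PBS cells formed a cluster led by Ngp, Camp and Lcn2, genes of immature neutrophils, with 76.6 and 27.0 CPM of the arms. Xist alone was found in 21, 10 and 19 cells of the class and a Y transcript alone in 7, 95 and 49. Sex and treatment cannot be told apart in this class. Within cluster 14 (Hdc, Cxcl2, G0s2; 50, 220 and 183 cells) the GTPase arm was at 390, 727 and 4874 CPM, a log2 ratio of 3.65 [3.25, 4.07] at 7 days. There the Ifit/Oas arm was at 794, 476 and 1067 CPM, a log2 ratio of -0.74 at 3 days, opposite to the class as a whole, and 0.43 at 7 days. Iigp1 had 0, 0 and 2 UMIs in the class, whereas Gbp2 was at 43.5, 308 and 1829.7 CPM. Iigp1 was therefore an exception to the GTPase pattern of these cells. Isg15 was at 268, 230 and 1089 CPM.

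Dendritic cells had a higher GTPase arm at 7 days in every class measured and differed in the Ifit/Oas arm. In cDC2-like cells the GTPase arm was at 248, 419 and 1556 CPM and the Ifit/Oas arm at 115, 146 and 229 CPM, log2 ratios of 2.65 [2.52, 2.78] and 0.99 [0.79, 1.20] at 7 days. Cells with a Y transcript (27, 53 and 161) gave 3-day and 7-day ratios of 1.34 and 3.52 [3.08, 3.99] for the GTPase arm and 1.93 and 3.01 [2.02, 4.23] for the Ifit/Oas arm, the latter from 8 UMIs in PBS. Both arms were higher against PBS in those cells than in the whole class. In this class 2 of 33 members were at least 2-fold higher at 3 days (Gbp2 and Irf7), against 1.43% of all genes, and 23 of 39 at 7 days, against 2.9%. The 23 were 12 of 12 GTPases, Ifit2 and Oasl2 of the Ifit/Oas arm, 3 of 4 transcription factors, Slfn1 and 5 other members. In cDC1-like cells the GTPase arm was at 128, 112 and 554 CPM and the Ifit/Oas arm at 27.4, 40.1 and 33.7 CPM, with overlapping intervals in the latter. Its cells with a Y transcript had GTPase ratios of -0.29 [-0.77, 0.19] at 3 days and 2.08 at 7 days. Their Ifit/Oas ratios were -0.90 [-1.57, -0.20] at 3 days and -0.74 [-1.42, -0.04] at 7 days. Within Y cells this arm was thus below PBS at both times. Iigp1 was at 4.01, 5.17 and 132 CPM in cDC1-like cells. In plasmacytoid DC-like cells, known as the main makers of type I interferon, the GTPase arm was at 251, 148 and 804 CPM, below PBS at 3 days (log2 ratio -0.76, and -0.87 in cells with a Y transcript). Bst2, a marker of these cells, was at 3214, 3283 and 3189 CPM there, the highest level of any class in each library.

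**Figure D5:**
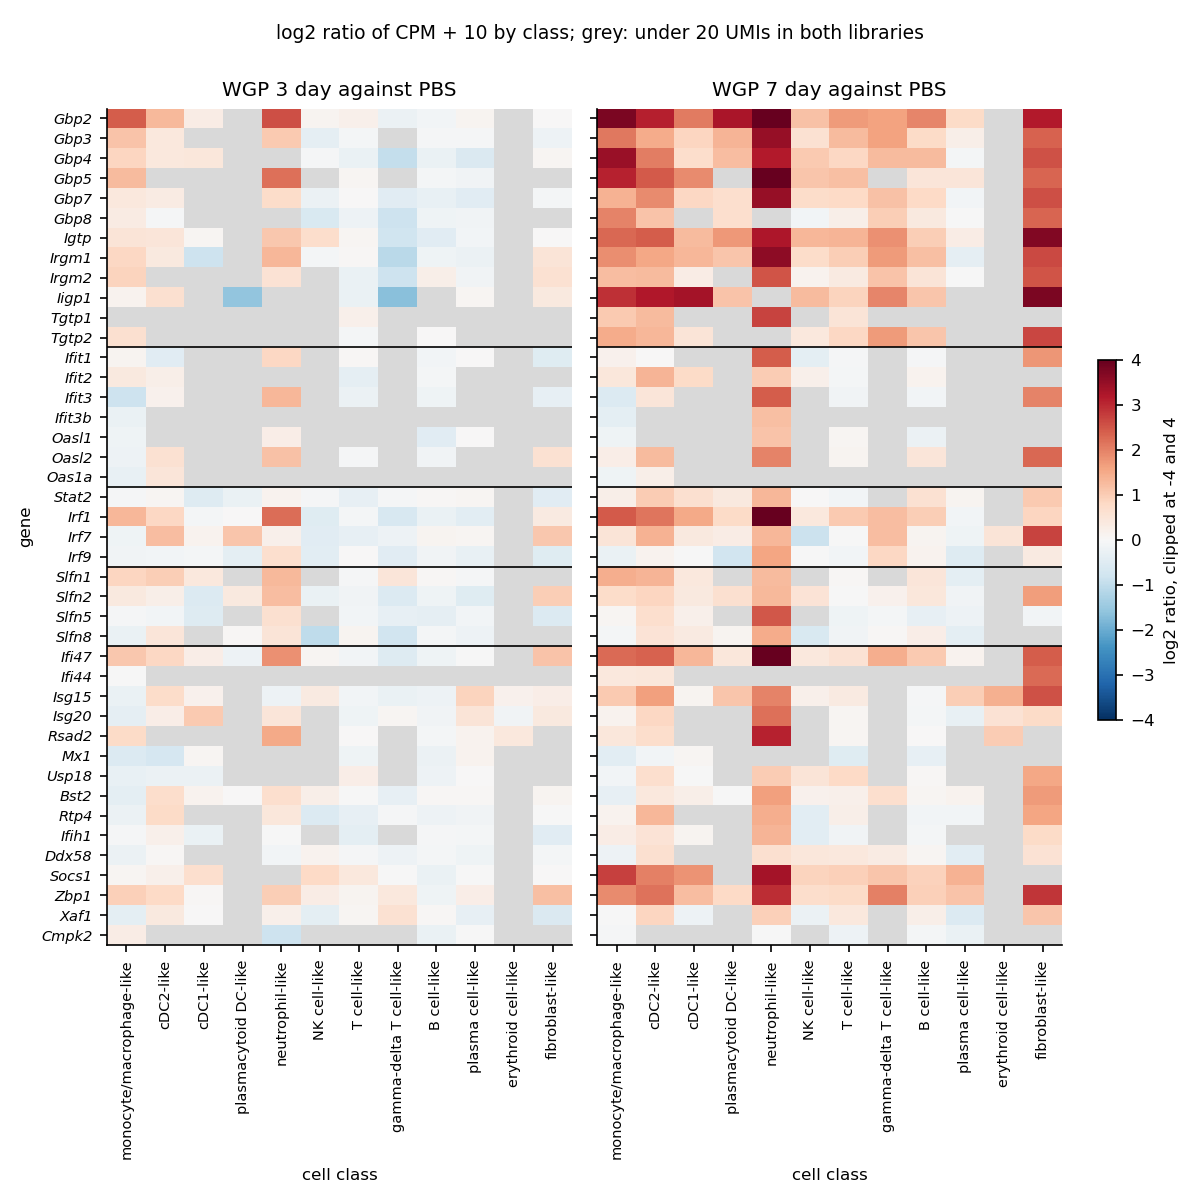
WGP over PBS as a log2 ratio, with 10 CPM on both sides, for 42 members (rows, grouped by list with lines between lists) in 12 classes (columns) at 3 days (left) and 7 days (right); the colour scale is clipped at -4 and 4, and grey marks under 20 UMIs in both libraries. At 7 days 78 of 115 measured GTPase squares are at 1 or more, against 11 of 34 Ifit/Oas squares, and none is at -1 or less; over all genes 2.94% of such pairs of a gene and a class were at 1 or more and 2.12% at -1 or less.

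Summed over a class, the GTPase arm of T, NK and B cell-like cells was higher than in PBS at 7 days and not at 3 days. In T cell-like cells the GTPase arm was at 472, 454 and 1068 CPM and in NK cell-like cells at 394, 351 and 759 CPM. In B cell-like cells it was at 216, 181 and 591 CPM, 0.26 log2 units below PBS at 3 days. The 7-day log2 ratios were 1.18 [1.08, 1.28], 0.95 [0.74, 1.16] and 1.45 [1.36, 1.54]. Single T cell-like clusters differed. Cluster 16, led by Lef1, Dapl1 and Tcf7, held 144, 147 and 67 cells. It was at 581 [517, 650], 346 [306, 389] and 509 [436, 590] CPM, not above PBS at 7 days. Cluster 7, led by Xcl1, Ikzf2 and Ccl5, held 166, 189 and 285 cells. It was at 368 [327, 413], 484 [444, 527] and 1021 CPM, above PBS at 3 days as well. Clusters 11 and 22 were at 533, 588 and 1487 and at 388, 378 and 513 CPM. The Ifit/Oas arm was at 90.9, 78.3 and 87.1 CPM in T cell-like, 53.7, 39.7 and 43.9 CPM in NK cell-like and 39.4, 28.8 and 41.8 CPM in B cell-like cells. Its 7-day intervals held 0 in these 3 classes, and also within 1 sex where that was read. At 3 days its ratio was -1.08 [-1.55, -0.63] in T cell-like Xist cells and 0.43 [-0.07, 0.95] in Y cells. In B cell-like cells it was 0.47 [-0.15, 1.06] in Xist cells and -1.05 [-1.62, -0.51] in Y cells. Cells with a Y transcript and cells with Xist gave a 7-day GTPase ratio of 1.45 and 0.63 in T cell-like cells and 1.74 and 0.61 in B cell-like cells. At 3 days the B cell-like ratio was -0.08 [-0.26, 0.10] in Y cells and -0.77 [-1.05, -0.49] in Xist cells, so it lay below PBS in Xist cells and its interval held 0 in Y cells. NK cell-like cells with a Y transcript gave 1.30 [0.82, 1.82] at 7 days.

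Members at least 2-fold higher than PBS were found in NK, T and B cell-like cells at 7 days and not at 3 days. At 3 days 0 of 21 members measured in NK cell-like, 0 of 37 in T cell-like and 0 of 37 in B cell-like cells were. Of all genes 0.585%, 0.204% and 0.0308% were, so these counts of 0 are near the shares of all genes. At 7 days there were 5 of 29 in NK cell-like cells (Gbp2, Gbp4, Gbp5, Igtp and Iigp1; 1.32% of all genes). In T cell-like cells there were 5 of 39 (Gbp2, Gbp3, Gbp5, Igtp and Irf1; 1.01%). In B cell-like cells there were 6 of 38 (Gbp2, Gbp4, Ifi47, Iigp1, Irgm1 and Tgtp2; 0.154%). Gbp2 was the 1 gene on all 3 lists, at 45, 52.9 and 170 CPM in T cell-like cells. No Ifit/Oas gene was on any of them.

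In gamma-delta T cell-like cells the GTPase arm was the highest of the lymphocytes in PBS and at 7 days, and it was below PBS at 3 days, at 742 CPM in PBS, 398 at 3 days and 2317 at 7 days. The log2 ratios were -0.90 [-1.07, -0.73] and 1.64 [1.48, 1.81], and -0.69 and 1.83 in cells with a Y transcript. Iigp1 was at 31.0, 2.90 and 149 CPM and Igtp at 198, 111 and 738 CPM in the same order. The class held 135, 387 and 65 cells. ILC2-like cells (290, 280 and 12 cells) had the GTPase arm at 400 and 383 CPM in PBS and 3-day WGP.

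Fibroblast-like cells, few in a CD45 sort (43, 46 and 26 cells), had the highest GTPase level of any class at 7 days, at 495, 607 and 5148 CPM, with the Ifit/Oas arm at 129, 136 and 567 CPM. Iigp1 reached 1696 CPM there, from 115 in PBS. Sex and treatment cannot be told apart in this class, which had too few cells of either sex to be split. Plasma cell-like cells had the smallest 7-day ratio of the 12 classes (0.31 [0.14, 0.48]), with the GTPase arm at 106, 80.0 and 132 CPM. In its cells with a Y transcript (139 in PBS and 67 at 7 days) the ratio was 0.09 [-0.11, 0.29]. The Ifit/Oas arm of these Y cells had ratios of -0.83 [-1.34, -0.31] at 3 days and -1.66 [-2.75, -0.70] at 7 days. The 7-day ratio rests on 50 UMIs in PBS and 11 at 7 days. Over the 12 classes with at least 20 cells in every library, neutrophil-like cells had the highest level of 7 of 42 members in PBS. They had the highest level of 13 at 3 days and of 22 at 7 days. The share of all genes that are highest in this class was not counted, so these counts cannot be called particular to the members.

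The share of cells with a UMI showed the spread of both arms over cells. After thinning to 1000 UMIs, 24.7% [21.9, 27.7] of monocyte/macrophage-like cells had a GTPase UMI in PBS, 47.3% [43.7, 50.9] at 3 days and 75.9% [73.6, 78.1] at 7 days. For the Ifit/Oas arm the shares were 17.7% [15.3, 20.4], 15.3% [12.8, 18.0] and 21.1% [19.0, 23.3]. Without thinning they were 79.4%, 93.4% and 97.5% for the GTPases and 67.9%, 71.2% and 74.2% for Ifit/Oas, at median depths of 10255, 13977.5 and 10797 UMIs. These shares were not split by sex. At least 3 GTPase UMIs were found in 2.34%, 10.6% and 42.4% of thinned cells. In erythroid-like cells, taken as a floor, the thinned GTPase shares were 0%, 0% and 1.30%, at median depths of 6483, 7438 and 12276 UMIs. The Ifit/Oas shares were 0%, 2.25% and 1.30%. These cells did not lack all members, since Isg20 was highest in them in every library, at 250, 224 and 378 CPM. The class held 123, 89 and 77 cells, and 0 of 123 in PBS allows a share of up to 2.44% by the limit of 3 counts, and 2.95% as the upper end of the exact interval.

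Free RNA also differed between the libraries. Barcodes of at most 100 UMIs, taken as free RNA, had the GTPase arm at 225, 435 and 1454 CPM and the Ifit/Oas arm at 73.1, 98.7 and 123 CPM. Erythroid-like cells of the same libraries held 7.45, 2.82 and 16.6 CPM of the GTPase arm, below every other class of the 12. The part of free RNA in the values of the other classes was not tested.

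Among interferon genes outside the members, no type I interferon gene was above 11 UMIs in any library: Ifnb1 had 0, 1 and 11 UMIs in the whole sort. Ifng, which encodes interferon gamma, was at 81.2, 64.7 and 367 CPM in T cell-like cells and 263, 230 and 238 CPM in NK cell-like cells. Its log2 ratio in T cell-like cells was 2.18 [1.96, 2.41] at 7 days. In monocyte/macrophage-like cells it had 0, 3 and 18 UMIs. In cDC2-like cells Ifng was at least 2-fold higher at both times, with log2 ratios of 1.37 and 2.20 after 10 CPM was added. The Ifng values are not split by cluster or sex here.

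In monocyte/macrophage-like cells Ifngr1, a chain of the interferon gamma receptor, was at 300.4, 280.3 and 279 CPM and Irf8, a transcription factor of monocytes and dendritic cells, at 204, 202 and 377 CPM. Of 8 measured interferon gamma response genes outside the members, 2 were higher at 3 days (Cd274 and Batf2) and 6 at 7 days (Cxcl9, Cxcl10, Nos2, Cd274, Batf2 and Nlrc5), where 2.54% and 2.99% of all genes were. Cd74, the MHC class II invariant chain, was at 6536, 4035 and 9212 CPM. The chemokine genes Cxcl9 and Cxcl10 were at 78.0, 88.7 and 1370.3 CPM and at 41.7, 44.6 and 965 CPM, as late in their rise as Iigp1 and Socs1.

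Of 36 other measured interferon-stimulated genes outside the members, 1 was at least 2-fold higher at 3 days (Ifitm1) and 4 at 7 days (Ifi211, Gbp6, Gbp9 and Ifitm1). The 3-day count is near the share of all genes (2.54%), and at 7 days that share was 2.99%. The 3 highest were Ifitm3 at 2314, 3439 and 4312 CPM, Ifi27l2a at 2476, 1212 and 1686 CPM and Ly6e at 1119, 1254 and 1866 CPM. Ifi27l2a was at least 2-fold lower at 3 days and Ddx60, a cofactor of RNA sensors, at 7 days (50.7, 24.6 and 11.9 CPM). Gbp6 and Gbp9, guanylate-binding proteins that are not members, were at 1.72, 6.37 and 21.2 CPM and at 16.4, 20.6 and 46.8 CPM.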

How the data were processed

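Live CD45+ pancreas cells of 3 groups, with 1 library each, were sequenced as 3′ tags by droplet single-cell RNA-seq. The authors aligned reads to mm10 and counted UMIs with Cell Ranger 3.1.0, and the deposited matrices hold unnormalized counts of UMIs for each gene in each barcode. Seurat is also named in the processing notes of the submitters. All value columns were used.

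Barcodes with at least 1000 UMIs and at most 30% mitochondrial UMIs were kept. Cells were clustered on 2000 variable genes, without the members and the other listed interferon genes. The settings were 30 principal components, 20 neighbours and Leiden resolution 1.5, which gave 37 clusters (scanpy 1.11.5, leidenalg 0.10.2, Python 3.11.15). Clusters were named by a marker list whose genes were on average at least 2-fold above the median cluster, with at least 3 markers raised; these limits were set after the clusters were seen, and cells of no named class (596, 396 and 332) were kept apart. Scrublet marked 0, 0 and 2 cells, which is too few to count as a working call, and no doublets were removed.

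UMIs were summed per library and class and divided by their total. Intervals are exact (Poisson for CPM, Clopper-Pearson for shares, conditional binomial for ratios) at 95% and cover counting error only. The ratio intervals and the 2-fold call were run on simulated Poisson counts. Those counts follow the model that the intervals assume, so the run cannot show how well they fit these cells. A member was counted as higher or lower at a 2-fold ratio after adding 10 CPM, with at least 20 UMIs in either library. With 1 library per condition no p-value was computed. For shares of cells, each cell was thinned to 1000 UMIs, which every kept cell has. The named members are the 6 GTPases, 4 Ifit/Oas genes and 2 of each other list with the highest mean CPM in the monocyte/macrophage class, and the 3 largest rises and falls at each time there. The members and lists were chosen with earlier results of these data known. RefSeq promoters are of GRCm38.p6, the same assembly as mm10. Alternatives were other UMI limits, scalings, class definitions, doublet removal, sex and single clusters. The counts over the list of receptor and signalling genes are not reported here.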

Additional observations from a re-analysis of the deposited data

Results flagged for a closer look

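Classes that moved in opposite directions at 3 days were picked out by their log2 ratios to PBS, whose counting intervals lay on opposite sides of 0. Against 1.37 for the GTPase arm of monocyte/macrophage-like cells stood -0.76 in plasmacytoid DC-like, -0.90 in gamma-delta T cell-like, -0.26 in B cell-like and -0.41 in plasma cell-like cells. Against -0.24 for the Ifit/Oas arm of monocyte/macrophage-like cells stood 0.35 in cDC2-like, 0.95 in neutrophil-like and 3.21 in erythroid-like cells, the last from 1 and 7 UMIs. In B cell-like cells with a Y transcript the 3-day interval held 0 (-0.08 [-0.26, 0.10]). The differences between classes were not tested, since each condition has 1 library. In cluster 14 of the neutrophil-like cells the 3-day Ifit/Oas ratio was -0.74.

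Free RNA, in barcodes that no comparison of cells used, also differed between the libraries. The GTPase arm had log2 ratios to PBS of 0.95 at 3 days and 2.69 at 7 days there, and the Ifit/Oas arm 0.43 and 0.75.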

How the results depend on the processing

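Of 138 alternative values, 60 stayed the same and 78 moved. Ratios and shares were held against their counting interval, and counts of members, which have none, against a fixed fold. The 3-day Ifit/Oas ratio changed sign in Y cells of the whole sort and in 1 neutrophil cluster, and the 7-day Ifit/Oas ratio of monocyte/macrophage-like cells, whose interval holds 0, fell on either side of it. Log2 ratios follow as 3 days and 7 days, or as 1 time where stated. The GTPase arm in all cells (0.50 and 2.67) was 0.26 and 2.32 with at most 10000 UMIs per cell, 0.39 and 2.56 as the mean over cells, 0.66 and 2.74 with median-of-ratios scaling, 0.18 and 2.32 without its top member, 0.14 and 1.88 as the median over all 12 members, 0.0366 and 2.14 in Xist cells, 0.76 and 3.04 in Y cells, 0.56 and 2.19 at PBS class shares and 2.59 at 7 days with Ifi47. In monocyte/macrophage-like cells (1.37 and 2.88) it was, in the same order, 1.22 and 2.94, 1.31 at 3 days, 1.51 and 3.15, 0.87 and 2.47, 0.73 and 2.05 (over all 12 members, Tgtp1 included) and, in Xist cells, 0.58 and 2.35. It was 2.81 at 7 days with Ifi47, 1.53 at 3 days with classes from marker UMIs per cell, and 1.11 and 2.20 in cluster 3.

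The Ifit/Oas arm in all cells (-0.18 and 0.93) was -0.29 at 3 days with at most 10000 UMIs, -0.12 and 1.13 as the mean over cells, -0.0320 and 0.996 with median-of-ratios scaling, -0.27 and 0.72 without its top member, -0.0529 and 0.35 as the median over members, -0.0718 and 1.05 without near-identical pairs, -0.51 and 0.43 in Xist cells, 1.08 and 2.20 in Y cells and 0.35 at 7 days at PBS class shares. In monocyte/macrophage-like cells (-0.24 and 0.05) it was -0.54 and 0.25 with at most 10000 UMIs, -0.10 and 0.33 with median-of-ratios scaling, -0.0788 and 0.21 without near-identical pairs, -0.0196 and -0.0814 in Xist cells and -0.71 and -0.56 in cluster 3. At 7 days it was -0.12 without its top member, -0.16 as the median over members, -0.0213 with the highest Scrublet scores removed, -0.0361 at resolution 0.8 and -0.0606 with classes from marker UMIs. In neutrophil cluster 14 the GTPase arm was 0.90 and 3.65 (2.05 and 4.75 in the class) and the Ifit/Oas arm -0.74 and 0.43 (0.95 and 2.12 in the class).

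With 1 CPM added in place of 10, 9 members and not 5 were higher in monocyte/macrophage-like cells at 3 days, 1 was lower at 3 days and 1 at 7 days. In Xist cells 3 of 41 were higher at 3 days, and in cluster 3, 4 of 38 were lower at that time. The share of all genes past the limit was not counted under these settings. Shares without thinning were 79.4%, 93.4% and 97.5% for the GTPases and 67.9%, 71.2% and 74.2% for Ifit/Oas. The Y cells, single clusters and Xist counts were chosen after seeing the data. The cause of these shifts was not tested. With 1 library per condition, differences between mice cannot be told apart from treatment. No paired analysis was possible because each condition has 1 library.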
